A study of Mus musculus with 14 samples.

Results

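The Dppa genes (developmental pluripotency associated) described here are Dppa2, Dppa3, Dppa4 and Dppa5a, 4 of 36335 named genes, picked by their gene symbol in the tables of total counts and of conversion counts. The samples were 14 libraries of mouse E14 embryonic stem cells that had all been kept for 2 weeks on gelatin in serum and LIF medium with 200 nM INK128, which blocks the mTOR kinase and puts such cells into a paused state. Mettl3-KO cells, which lack the enzyme that writes the mRNA mark m6A, gave 2 libraries at each of 0, 1, 3 and 8 h, 8 in all. WT cells gave 6, of which 2 each belong to 1 h and 8 h and 1 each to 0 h and 3 h. The hours run from the removal of S4U, a thiolated uridine fed for 12 h at 100 µM. RNA made during the feed then reads with T>C conversions after iodoacetamide, so the conversion count follows labelled RNA and the total count follows all RNA of a gene. The labels do not say how the knockout was made, whether it is 1 clone, or whether replicates were grown apart, and the p-values below cover only the variation among these libraries, which may be technical.

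The 4 genes share a name and high activity in early embryos and pluripotent cells, not one function. Dppa2 and Dppa4 are neighbouring genes whose SAP-domain proteins bind each other and sit at CpG-rich promoters, where they keep developmental genes open to later activation and free of DNA methylation, and they switch on Dux and the Zscan4 family in cells that resemble the 2-cell embryo. Dppa3, also called Stella or PGC7, is a maternal factor and a marker of primordial germ cells that binds Uhrf1 and keeps it off chromatin, which limits maintenance DNA methylation, and in mouse embryonic stem cell cultures only part of the cells express it. Dppa5a, also called Esg1, codes for a KH-domain RNA-binding protein of embryonic stem cells and the early germ line.

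In the RefSeq annotation of GRCm38.p6, the assembly of mm10, Dppa4 (chromosome 16, 48283735 to 48294292) and Dppa2 (chromosome 16, 48310274 to 48319513) lie 15981 bp apart. Dppa3 lies on chromosome 6 (122626424 to 122630271) and Dppa5a on chromosome 9 (78367052 to 78368199). Dppa1 and the pseudogenes Dppa5b and Dppa5c are in the tables with 0 counts in all 14 libraries.

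Depth split the libraries. Total counts were between 6108102 and 26654217 in 12 libraries, called deep below (7 Mettl3-KO and 5 WT). They were 602297 in Mettl3-KO 3 h replicate 2 and 49154 in WT 1 h replicate 2, so that 1 count equals several CPM (counts scaled to libraries of 1000000 and for composition) in these shallow libraries. Their conversions were low as well. They equalled 6.90% of total counts in the Mettl3-KO one, against 18.5% in Mettl3-KO 3 h replicate 1. In the WT one they equalled 8.43%, against 30.8% in WT 1 h replicate 1. Both libraries enter the label fits with all 14 libraries. Mettl3 had between 14 and 55 counts in the deep Mettl3-KO libraries and between 151 and 783 in the deep WT libraries, with 2 counts and 1 count in the shallow libraries. The lines differ in more than Mettl3. Y-linked Eif2s3y had between 40.7 and 70.2 CPM in the deep Mettl3-KO libraries and between 0.131 and 0.957 CPM in the deep WT libraries. An effect of Mettl3 and other differences between the lines therefore cannot be told apart. The source field names E15 and E16 for the 2 Mettl3-KO 8 h libraries, while their cell line field names E14. Defining markers of embryonic stem cells (10 genes) summed to between 4512 and 6012 CPM in the deep Mettl3-KO libraries. In the deep WT libraries they summed to between 5315 and 6739 CPM. With all 14 libraries 1 of the 10, Esrrb, passed the test (log2 change -0.90, SE 0.27). With the 12 deep libraries 1 of the 10 was called higher and 2 lower, beside 41.2% of all genes called there.

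Total RNA of the 4 Dppa genes did not change together. Of the 4, Dppa3 was called higher in Mettl3-KO cells (edgeR adjusted p under 0.05) and none was called lower with all 14 libraries, beside 12.1% of the 14641 genes tested called higher and 9.99% called lower. Dppa2 and Dppa4 did not pass, and Dppa5a, the gene with the fewest counts, passed only without 1 shallow library or with another tool. The median change over all genes tested was 0.05 on the log2 scale.

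Dppa3 was 13.3-fold higher in Mettl3-KO cells. In Mettl3-KO libraries it had 50.03 and 35.5 CPM at 0 h, 47.9 and 43.7 CPM at 1 h, 43.4 and 13.98 CPM at 3 h, and 44.6 and 42.0 CPM at 8 h. In WT libraries it had 3.88 CPM at 0 h, 4.26 and 0 CPM at 1 h, 3.13 CPM at 3 h, and 2.82 and 0.762 CPM at 8 h. The low Mettl3-KO value rests on 5 counts in the shallow library, and the WT value of 0 comes from the shallow WT library, where 3 counts would stand at 60.9 CPM, so that library says nothing about Dppa3. The deep libraries did not overlap, and the lowest Mettl3-KO library stood above the highest WT library at every chase time. Behind these values lay between 506 and 1111 counts in each deep Mettl3-KO library and between 5 and 73 in each deep WT library.

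Mettl3-KO libraries averaged 40.1 CPM ± 11.4 of Dppa3 (SD, n = 8) and WT libraries 2.48 CPM ± 1.72 (SD, n = 6). The change on the log2 scale was 3.73 (SE 0.39, 95% interval 2.98 to 4.49, edgeR adjusted p = 2.69e-05). Over the 12 deep libraries the means were 43.9 CPM ± 4.63 (SD, n = 7) and 2.97 ± 1.36 (SD, n = 5), with a log2 change of 3.81 (SE 0.27, edgeR adjusted p = 8.21e-09). In such bulk libraries, more cells that express Dppa3 and more Dppa3 RNA per cell cannot be told apart.

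**Figure D1:**
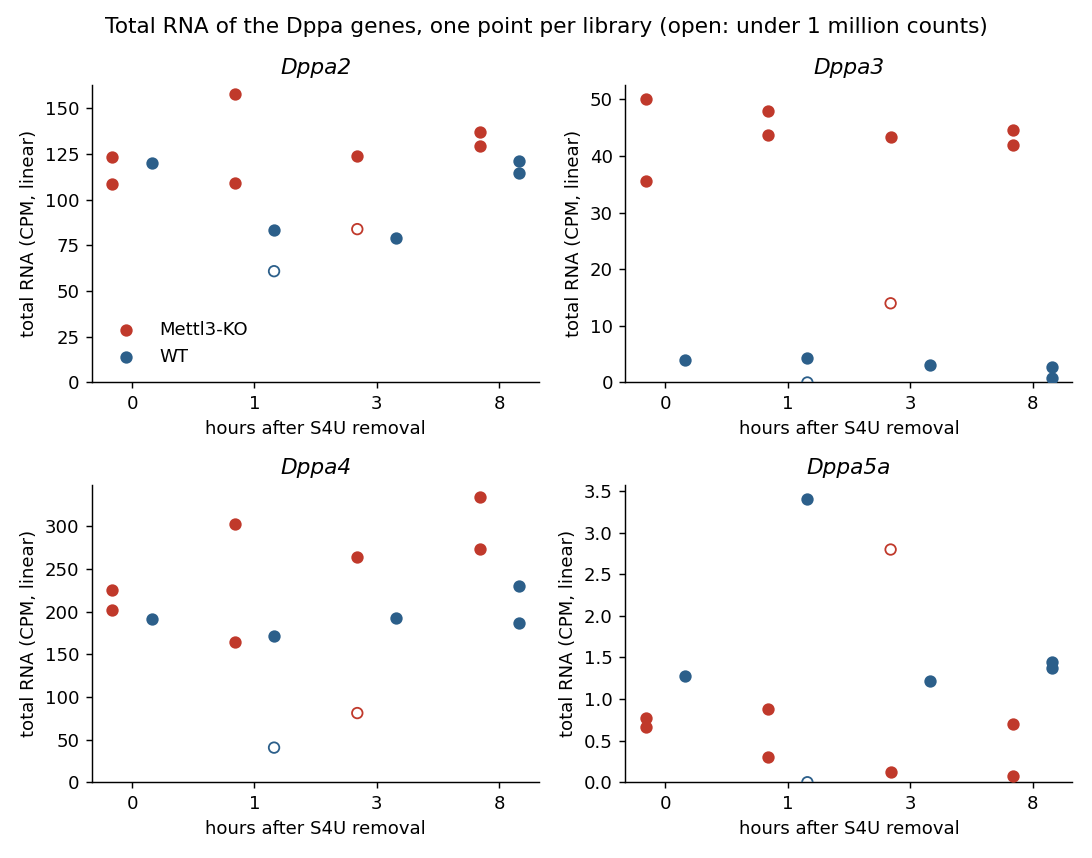
Total RNA in CPM (linear axes from 0) against hours after S4U removal, 1 panel per gene and 1 point per library, with Mettl3-KO left of WT at each time and the 2 shallow libraries as open points. Filled Dppa3 points lie between 35.5 and 50.03 CPM in Mettl3-KO and between 0.762 and 4.26 CPM in WT, while the filled points of Dppa2 and Dppa4 overlap between genotypes.

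Dppa2 levels overlapped between genotypes. Mettl3-KO libraries had 124 and 109 CPM at 0 h, 109 and 158 CPM at 1 h, 124 and 83.9 CPM at 3 h, and 137 and 129 CPM at 8 h. WT libraries had 119.9 CPM at 0 h, 83.4 and 60.9 CPM at 1 h, 79.3 CPM at 3 h, and 121 and 114 CPM at 8 h. The lowest value of each genotype came from its shallow library (30 counts in Mettl3-KO and 3 in WT), and the deep ranges overlapped. Mettl3-KO libraries averaged 122 CPM ± 21.9 (SD, n = 8) and WT libraries 96.6 CPM ± 25.4 (SD, n = 6), a log2 difference of 0.31 (SE 0.20, 95% interval -0.07 to 0.69, edgeR adjusted p = 0.292). The interval holds no difference as well as one up to its upper bound.

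Dppa4, the partner of Dppa2, overlapped as well. It had 226 and 202 CPM at 0 h, 165 and 303 CPM at 1 h, 264 and 81.1 CPM at 3 h, and 274 and 334 CPM at 8 h in Mettl3-KO libraries. WT libraries had 191 CPM at 0 h, 172 and 40.6 CPM at 1 h, 193 CPM at 3 h, and 187 and 230.0 CPM at 8 h. The shallow libraries again held the lowest value of each genotype, with 29 counts in Mettl3-KO and 2 in WT. Its mean was 231 CPM ± 81.5 over Mettl3-KO libraries (SD, n = 8) and 169 CPM ± 65.7 over WT libraries (SD, n = 6), with a log2 difference of 0.39 (SE 0.30, 95% interval -0.20 to 0.97, edgeR adjusted p = 0.4002). In the 12 deep libraries the difference was 0.40 (SE 0.17, edgeR adjusted p = 0.0700), still short of the threshold.

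The neighbours Dppa4 and Dppa2 had overlapping ratios in both genotypes. Dppa4 CPM divided by Dppa2 CPM lay between 1.51 and 2.58 (median 1.92) in the deep Mettl3-KO libraries and between 1.54 and 2.43 (median 2.01) in the deep WT libraries. These ratios are of counts not divided by transcript length, so they compare libraries and not the genes. Across the 12 deep libraries, of both genotypes and of unequal depth, Pearson's r between the log2 CPM of Dppa2 and Dppa4 was 0.70 (0.79 over 7 Mettl3-KO and 0.41 over 5 WT libraries).

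Dppa5a had 157 counts in all 14 libraries together. The Mettl3-KO libraries held 13 and 11 counts at 0 h, 20 and 6 at 1 h, 3 and 1 at 3 h, and 8 and 2 at 8 h. The WT libraries held 24 counts at 0 h, 24 and 0 at 1 h, 14 at 3 h, and 22 and 9 at 8 h. As CPM the deep libraries did not overlap, with between 0.0756 and 0.878 CPM in Mettl3-KO and between 1.22 and 3.41 CPM in WT. Among the genes tested, 10.2% were lower in Mettl3-KO with no overlap of deep libraries, and 13.1% were higher as Dppa3 was.

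The shallow libraries turned this order round for Dppa5a, since a single count stood for 2.80 CPM in the Mettl3-KO one and the WT one held 0. With all 14 libraries Mettl3-KO averaged 0.791 CPM ± 0.866 (SD, n = 8) and WT 1.45 CPM ± 1.097 (SD, n = 6), and the log2 difference of -1.87 (SE 0.65, 95% interval -3.14 to -0.59) missed the threshold at edgeR adjusted p = 0.0530. Without the 2 shallow libraries it was -2.07 (SE 0.64) and passed at edgeR adjusted p = 0.0150, beside 19.3% of genes called lower in that fit. Leaving out Mettl3-KO 3 h replicate 2 on its own gave -2.06 (edgeR adjusted p = 0.0158). DESeq2 on all 14 libraries gave -1.91 (adjusted p = 0.0112). How reads shared with the pseudogenes Dppa5b and Dppa5c, which lie on the same chromosome, were counted is not given in the sources used here, so the level of Dppa5a is uncertain.

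The course of total RNA over the chase did not differ detectably between genotypes. The difference in log2 CPM per hour between Mettl3-KO and WT was -0.03 (SE 0.06) for Dppa2, 0.14 (SE 0.10) for Dppa3, -0.001 (SE 0.09) for Dppa4 and -0.05 (SE 0.17) for Dppa5a. None of the 4 passed, nor did any of the 14641 genes (0% by edgeR, with 728 genes at an unadjusted p under 0.05 and 53 called by DESeq2). None of the 4 was under 0.05 unadjusted.

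Labelled RNA at the end of the feed was higher in Mettl3-KO for Dppa3, and no difference passed for Dppa2 or Dppa4. The fit to the conversion counts of 12678 genes took in Dppa2, Dppa3 and Dppa4, while Dppa5a reached 10 conversion counts in too few libraries. Dppa3 was called higher at 0 h, beside 1.35% of genes called higher and 6.27% called lower, and 1 of the 3 members fitted passed. Relative to all RNA of the library, labelled Dppa3 stood at 17.9 and 12.6 CPM in the Mettl3-KO 0 h libraries and at 0.745 CPM in the WT 0 h library. The fitted log2 difference at 0 h was 3.63 (SE 0.80, 95% interval 2.07 to 5.19, edgeR adjusted p = 0.000697). It rests on the 14 conversion counts of the only WT 0 h library, without which it was 2.58 (edgeR adjusted p = 0.188).

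For Dppa2 the fitted labelled difference at 0 h was 0.11 (SE 0.49, 95% interval -0.84 to 1.06, edgeR adjusted p = 0.936). For Dppa4 it was -0.04 (SE 0.49, 95% interval -0.99 to 0.92, edgeR adjusted p = 0.981). The median over all genes was -0.35. These values come from a line through all chase hours and can depart from the 0 h libraries themselves. Labelled Dppa2 there stood at 46.3 and 43.6 CPM in Mettl3-KO and at 73.6 CPM in WT. Labelled Dppa4 stood at 90.0 and 85.5 CPM in Mettl3-KO and at 113 CPM in WT. Both members were thus lower in the Mettl3-KO 0 h libraries than in the only WT one. Whole libraries carried conversions equal to 26.1% and 26.6% of total counts in Mettl3-KO and 39.4% in WT at 0 h, so labelled RNA as a whole stood lower in Mettl3-KO at that time.

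**Figure D2:**
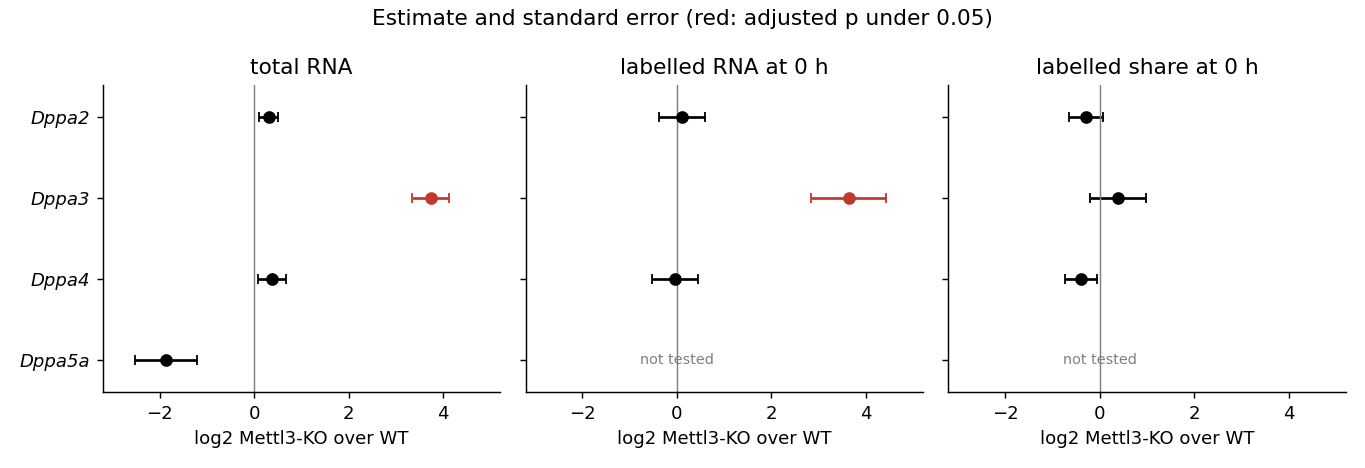
Log2 difference of Mettl3-KO over WT (horizontal axis, with standard error bars) for total RNA, for labelled RNA at 0 h per unit of all RNA in the library, and for labelled RNA at 0 h per unit of the gene's own RNA, 1 row per gene. Dppa3 stands at 3.73 for total RNA, 3.63 for labelled RNA and 0.38 for its labelled share, and Dppa5a had too few conversions for the last 2 panels. Values at 0 h are fitted over all chase hours.

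In the fit over all chase hours against the gene's own total, the label of Dppa3 at 0 h did not differ detectably. The log2 difference was 0.38 (SE 0.60, 95% interval -0.79 to 1.55, edgeR adjusted p = 0.805), beside a 13.3-fold higher total and a 12.4-fold higher labelled level. The conversion count was 35.8% and 35.4% of the total count of Dppa3 in the Mettl3-KO 0 h libraries and 19.2% in the WT 0 h library (14 of 73, exact Clopper-Pearson 95% interval 10.9% to 30.1%). The exact intervals in Mettl3-KO, 32.6% to 39.2% and 31.6% to 39.5%, lay above that of the only WT library. Over the share of the whole library, Dppa3 stood at 1.37 and 1.33 in Mettl3-KO and at 0.486 in WT. Among genes with at least 20 counts, 71.8% had a lower share than Dppa3 in Mettl3-KO at 0 h and 4.68% had a lower one in WT. These intervals cover counting error only, and a conversion count may be a read or a converted base. In 152 genes the conversion count exceeded the total count in some library. Conversion counts are thus not always a part of the total, as the exact intervals assume.

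Dppa2 and Dppa4 stood among the more labelled genes at 0 h in both genotypes. Dppa2 shares were 37.4% and 40.1% in Mettl3-KO and 61.4% in WT, above those of 81.2% of genes in Mettl3-KO and 92.7% in WT. Dppa4 shares were 39.9% and 42.3% in Mettl3-KO and 59.3% in WT, above those of 87.0% of genes in Mettl3-KO and 89.8% in WT. The median gene had 29.8% in Mettl3-KO and 44.8% in WT. For both members the Mettl3-KO shares lay below the WT share, as they did for the whole library. The fitted differences per unit of own total, -0.29 (SE 0.37) for Dppa2 and -0.39 (SE 0.34) for Dppa4, did not pass. The median over all genes in that fit was -0.41, and 14.3% of genes stood above 0, as Dppa3 did.

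Over the chase Dppa2 lost most of its label in both genotypes. In Mettl3-KO libraries its share was 35.2% and 40.5% at 1 h, 26.05% and 13.3% at 3 h, and 2.19% and 2.25% at 8 h. In WT libraries it was 30.8% and 33.3% at 1 h, 27.7% at 3 h, and 2.11% and 2.93% at 8 h. The 33.3% is 1 of 3 counts and the 13.3% is 4 of 30, both from shallow libraries, and the genotypes overlapped at 8 h.

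Dppa4 ended higher than Dppa2 in every 8 h library. Its share in Mettl3-KO libraries was 41.9% and 41.1% at 1 h, 32.4% and 24.1% at 3 h, and 4.02% and 4.25% at 8 h. WT libraries had 49.3% and 0% at 1 h, 35.3% at 3 h, and 5.66% and 3.31% at 8 h. The 0% is 0 of 2 counts in the shallow WT library. At 8 h the WT values lay on either side of the Mettl3-KO values.

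Dppa3 kept more label than Dppa2 and Dppa4 at 8 h in Mettl3-KO. Its shares there were 32.7% and 35.1% at 1 h, 28.1% and 40.0% at 3 h, and 10.3% and 6.12% at 8 h. In WT they were 23.3% (7 of 30) at 1 h, 33.3% (12 of 36) at 3 h, and 0 of 43 and 0 of 5 counts at 8 h. The 40.0% is 2 of 5 counts in the shallow library. Both 8 h libraries together gave 7.42% in Mettl3-KO, above the share of 86.8% of genes, and 0 of 48 counts in WT, which allows a share of up to 6.25%. The lower Mettl3-KO library lies within that limit, so a difference at 8 h was not detectable at this depth.

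Dppa5a had high conversion shares on few counts. In Mettl3-KO, conversion against total counts were 9 of 13 and 4 of 11 at 0 h and 3 of 20 and 4 of 6 at 1 h. They were 2 of 3 and 0 of 1 at 3 h, and 7 of 8 and 0 of 2 at 8 h. In WT, they were 20 of 24 at 0 h, 19 of 24 at 1 h, 5 of 14 at 3 h, and 8 of 22 and 4 of 9 at 8 h. Shares at 8 h thus ran from 0% to 87.5% in Mettl3-KO and stood at 36.4% and 44.4% in WT, where both WT libraries together had 38.7% (12 of 31) and the median gene had 2.06%.

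**Figure D3:**
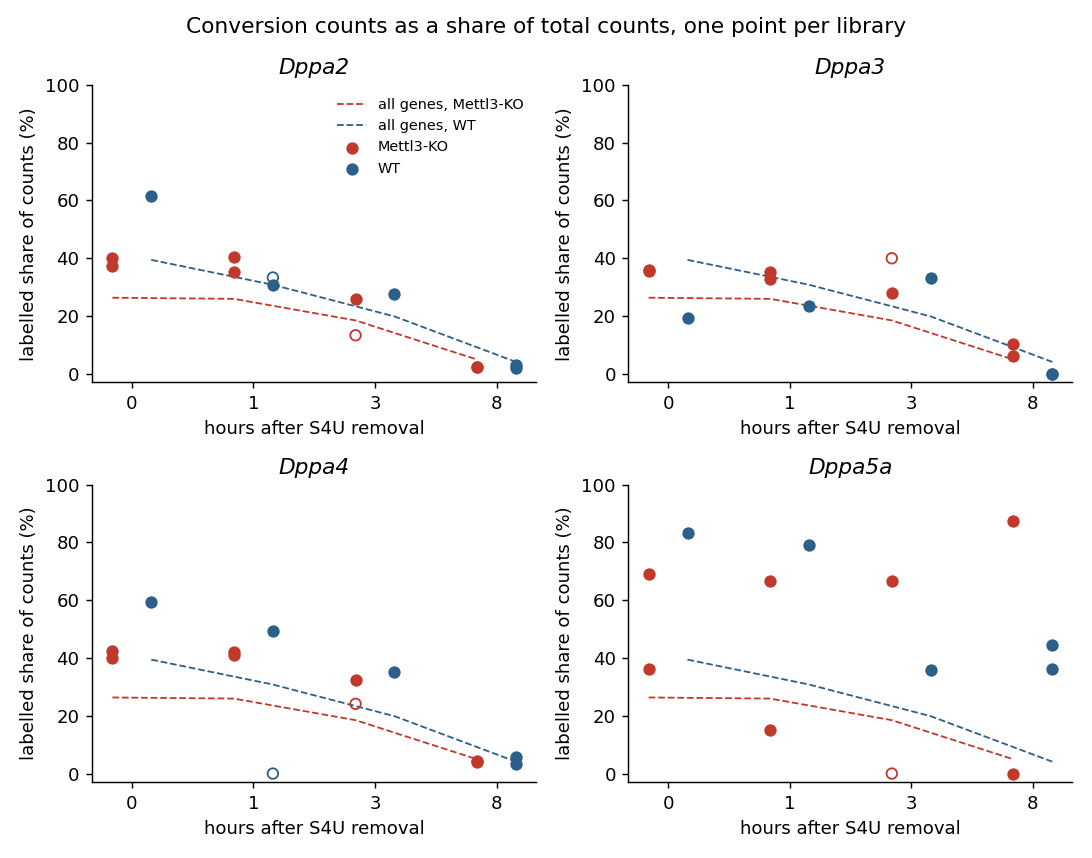
Conversion counts as a percentage of total counts against hours after S4U removal, 1 panel per gene and 1 point per library, with Mettl3-KO left of WT, the shallow libraries open, and dashed lines for the mean share of whole deep libraries. Dppa2 and Dppa4 reach 2.11% to 5.66% at 8 h, Dppa3 stands at 10.3% and 6.12% in Mettl3-KO, and Dppa5a, on few counts, at 36.4% and 44.4% in WT.

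Rates of label loss were fitted to conversion counts per unit of all RNA in the library, not to these shares. All 3 members in the fit lost label in Mettl3-KO, beside 88.2% of genes there, and all 3 lost it in WT, beside 91.4%. Label of Dppa2 changed by -0.53 on the log2 scale per hour in Mettl3-KO (SE 0.09) and by -0.54 in WT (SE 0.09), equal to half-lives of 1.89 h and 1.87 h. For Dppa4 the changes per hour were -0.38 (SE 0.08) in Mettl3-KO and -0.44 (SE 0.09) in WT, with half-lives of 2.65 h and 2.28 h. Dppa3 changed by -0.28 per hour in Mettl3-KO (SE 0.08) and by -0.52 in WT (SE 0.16), with half-lives of 3.59 h and 1.93 h. The gene at the median of all fits had 2.12 h in Mettl3-KO and 1.80 h in WT, none of these corrected for cell division. In the 0, 1 and 3 h libraries alone no member passed in either genotype, and calls over all genes fell to 265 in Mettl3-KO and 791 in WT.

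No member's loss rate passed the test of the difference, beside 2.6% of all genes. Dppa2 differed by 0.006 on the log2 scale per hour (SE 0.11, 95% interval -0.20 to 0.22, edgeR adjusted p = 0.990), where a positive value means slower loss in Mettl3-KO. Dppa4 differed by 0.06 (SE 0.11, 95% interval -0.15 to 0.27, edgeR adjusted p = 0.823). Dppa3 had the widest interval, with 0.24 (SE 0.18, 95% interval -0.12 to 0.60, edgeR adjusted p = 0.511). Leaving out 1 library moved it between 0.05 (without WT 8 h replicate 1) and 0.48 (without WT 0 h replicate 1), and it passed in none of these fits. None of the 3 was under 0.05 unadjusted or called by DESeq2, and the median over all genes was 0.10.

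The slower fitted loss of Dppa3 in Mettl3-KO shrank when label was set against the gene's own total. The half-lives were then 3.62 h in Mettl3-KO and 2.66 h in WT, and the difference per hour was 0.10 (SE 0.18). The WT rate of Dppa3 rests on 33 conversion counts in all, and without WT 8 h replicate 1 it no longer passed (-0.33 per hour, edgeR adjusted p = 0.0883).

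**Figure D4:**
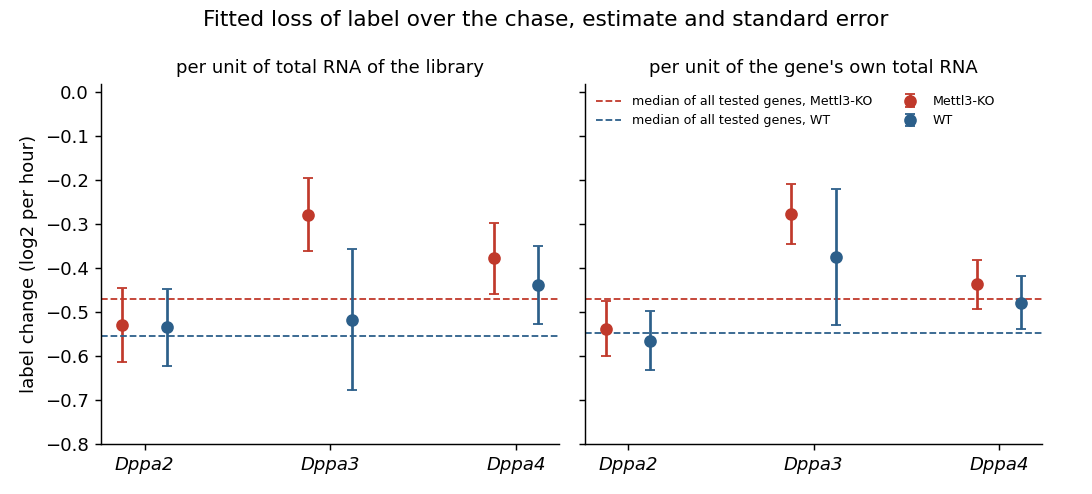
Fitted change of label in log2 units per hour (vertical axis, points with standard error bars), Mettl3-KO left of WT, per unit of all RNA in the library on the left and per unit of the gene's own RNA on the right. Dashed lines mark the median of all genes in each genotype. The Dppa3 point in Mettl3-KO stands at -0.28 in both panels, and its WT point moves to -0.38 in the right panel.

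The authors' deposited table of half-lives, which lists 6985 genes and names no unit, holds Dppa2 and Dppa3 of the 4. For Dppa2 the authors' deposited table gives 2.91 in Mettl3-KO and 1.69 in WT. For Dppa3 the authors' deposited table gives 6.75 in Mettl3-KO and 2.42 in WT, a difference of 4.34 that 4.82% of the listed genes exceed. A longer half-life in Mettl3-KO stands beside 83.4% of the genes in the authors' deposited table, with a median difference of 0.827. The correlations with time in the authors' deposited table reach no nearer to 0 than -0.80. Recomputed from the authors' normalized log2 values over all libraries, the WT correlation of Dppa4 was -0.69, and it was -0.98 without the shallow libraries.

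The authors' normalized values were compared with the counts on the assumption that a count of 0 was entered as 0.5 counts. The comparison gives a median over genes in each library, from which single genes can depart. On that basis, values in the authors' normalized table carried a further multiple of the count in 4 of the 12 deep libraries. It was 1.202 in both Mettl3-KO 0 h libraries and 2.34 and 1.63 in the Mettl3-KO 8 h libraries, and about 1.00 in the other deep libraries. In the shallow libraries it was about 1.00 in Mettl3-KO and 1.125 in WT. The multiple was thus larger at the end of the Mettl3-KO chase than at its start. The half-lives fitted to counts above use no such multiple, and its bearing on the authors' half-lives was not tested.

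The genes that act with or under the Dppa genes were read against the same background of 12.1% higher and 9.99% lower calls and a median of 0.05. Few of the genes switched on by Dppa2 and Dppa4 in 2-cell-like cells were measurable. Of 22 listed genes, 18 are in the tables, 8 of these had 0 counts throughout and 1 entered the test. That gene, Zfp352, a zinc finger gene of the 2-cell embryo, had a log2 difference of -1.48 (SE 0.60, edgeR adjusted p = 0.0921). Summed over the list, the deep libraries had between 1.62 and 4.41 CPM in Mettl3-KO and between 0.958 and 3.35 CPM in WT.

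Of 4 genes known to lose expression without Dppa2 or Dppa4 in mouse cells, 2 fell and none rose, with a median log2 change of -0.58. Mael, a piRNA pathway gene of the germ line, fell by 2.19 (SE 0.41, edgeR adjusted p = 0.00177), with 2.38 CPM ± 0.787 (SD, n = 7) in deep Mettl3-KO and 12.0 ± 5.38 (SD, n = 5) in deep WT libraries. Trap1a, an X-linked germ line and tumour antigen gene, fell by 0.70 (SE 0.19). Syce1, a component of the synaptonemal complex, stood at -0.11 (SE 0.25) and Nkx2-5, a cardiac transcription factor, at -0.47 (SE 0.53).

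The DNA methylation machinery, in which the Dppa3 partner Uhrf1 works, had 3 genes higher and 1 lower of 13, with a median of 0.34 (0.04 in the deep libraries). Dnmt3a rose by 1.70 (SE 0.46), Dnmt3b by 1.06 (SE 0.21) and their cofactor Dnmt3l by 0.77 (SE 0.23). Tet2, which oxidises methylated cytosine, fell by 1.02 (SE 0.22). The maintenance methyltransferase Dnmt1 stood at -0.21 and Uhrf1 at -0.31, and neither passed.

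Germline genes known to be sensitive to DNA methylation had 4 called higher and 4 called lower of 19 tested, with a median of -0.28. Rpl10l, a testis ribosomal protein gene, rose by 2.54 (SE 0.33). Mael is among the genes called lower. Mov10l1, a piRNA pathway helicase, fell by 2.79 (SE 0.40), and the germ cell kinase gene Stk31 fell by 1.30 (SE 0.34). Zfp981, a zinc finger gene, rose by 2.12 (SE 0.66). Its fitted label loss was slower in Mettl3-KO, at 1.63 on the log2 scale per hour (SE 0.42, edgeR adjusted p = 0.0179). Zfp981 stood near the floor in deep WT libraries, with 1.93 CPM ± 2.08 (SD, n = 5) and 0 in the lowest, so its WT rate is uncertain. Deep Mettl3-KO libraries had 6.39 CPM ± 2.54 (SD, n = 7). With 14 libraries no other listed gene was called for the loss rate. With the 12 deep libraries, slower loss was also called for 3 of 14 germ cell regulators, 1 of 3 KH-domain relatives and partners, 1 of 6 neighbours of Dppa3 and 1 of 10 stem cell markers, beside 5.35% of all genes tested there. Some genes stand in more than 1 of these lists.

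Regulators of primordial germ cells and of the preimplantation embryo had 3 higher and 2 lower of 14, with a median of -0.18. Ifitm1, an interferon-induced membrane protein gene, rose by 2.36 (SE 0.28), the alkaline phosphatase Alpl by 1.42 (SE 0.26) and Tfap2c, a transcription factor of germ cell specification, by 1.23 (SE 0.20). Prdm14, another such factor, fell by 1.46 (SE 0.31) and the receptor Kit by 1.07 (SE 0.29). The germ cell regulators did not move in 1 direction with Dppa3.

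Among KH-domain relatives of Dppa5a and their partners in the maternal complex of the oocyte, 3 of 7 had enough counts, and all 3 passed. Khdc3 rose by 2.91 (SE 0.52) and Tle6, a partner without a KH domain, by 1.92 (SE 0.39). Ooep fell by 1.53 (SE 0.29), with 37.9 CPM ± 10.7 (SD, n = 7) in deep Mettl3-KO libraries and 103 ± 29.4 (SD, n = 5) in deep WT libraries. Khdc1a and Khdc1c had 0 counts, Khdc1b had 1 and Nlrp5 had 4.

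Around Dppa3 on chromosome 6, 1 of the 6 tested genes of a list of neighbours rose and none fell, with a median of -0.08. Gdf3, a TGF-beta family ligand 16337 bp away, stood at 0.23 (SE 0.18), Apobec1, a cytidine deaminase gene 23400 bp away, at -0.46 (SE 0.93), and the pluripotency factor Nanog, 77218 bp away, at -0.21 (SE 0.20). Foxj2, a forkhead factor 189913 bp away, rose by 1.51 (SE 0.37, edgeR adjusted p = 0.00991). The glucose transporter Slc2a3 stood at -0.61 (SE 0.25) and Necap1 at 0.05 (SE 0.26). With the 12 deep libraries Apobec1 and Slc2a3 were called lower, and Clec4a2 had 39 counts and was not tested.

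**Figure D5:**
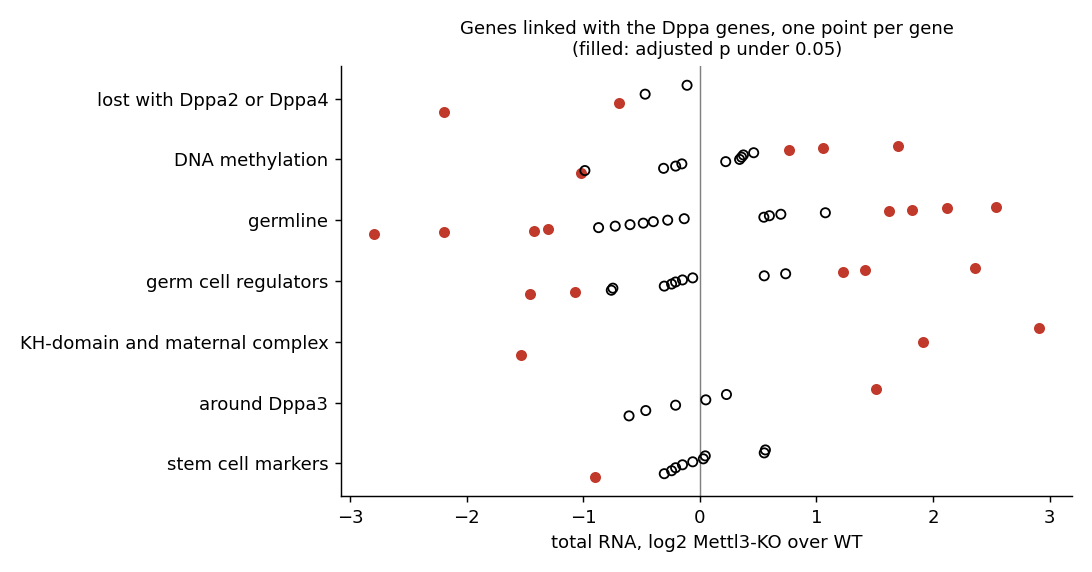
Log2 difference of Mettl3-KO over WT in total RNA (horizontal axis), 1 point per tested gene, in rows by gene list, with filled points at edgeR adjusted p under 0.05. Germline genes spread from -2.79 to 2.54, and the filled point around Dppa3 is Foxj2 at 1.51.

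Over the 12 deep libraries, genes with the log2 CPM pattern most like that of Dppa3 were Cers2 (Pearson's r 0.99), a ceramide synthase, Nxt2 (0.99), an mRNA export factor, and Neurod1 (0.99), a neuronal transcription factor. All 3 rose in Mettl3-KO, by 2.75, 1.58 and 3.68 on the log2 scale. Libraries of both genotypes and of unequal depth enter each r, and so does the difference between genotypes. For Dppa2 the nearest genes were Mtch2 (0.95), Gorasp2 (0.95) and Aup1 (0.94), for Dppa4 they were Psmc5 (0.94), Isoc1 (0.93) and Slc1a3 (0.93), and for Dppa5a they were Gm43244, Cenpp and Gm7527 (each 0.91). Psmc5, a proteasome subunit, rose by 0.72 and Gm7527 fell by 1.34, and the other 7 did not pass.

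Markers of other cell types also differed between genotypes. Primitive endoderm markers had 1 higher and 4 lower of 8 tested (median -2.35), with summed levels in deep libraries between 37.5 and 48.5 CPM in Mettl3-KO and between 142 and 191 CPM in WT. Primed epiblast markers had 5 higher and none lower of 8 (median 1.65), with sums between 732 and 1433 CPM in Mettl3-KO and between 375 and 525.8 CPM in WT. Fibroblast markers had 1 higher and 1 lower of 6, with sums between 159 and 251 CPM in Mettl3-KO and between 179.9 and 227 CPM in WT. The part of other cell states in the Dppa3 difference was not tested.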

How the data were processed

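Members and gene lists were chosen with earlier results of these data known. The authors deposited whole-number counts per gene, total and T>C conversion, for 36336 entries, of which 1 has no name and was left out (0.00707% to 0.0312% of the counts of a library). The authors also deposited log2 values normalized by them and a table of other fitted values (half-lives and correlations). Per the submitters' processing notes, the build was mm10 and the tools included edgeR 3.32.1, featureCounts (Subread 1.5.0) and Trim Galore 0.4.0. Not given in the sources used here are the aligner, the conversion caller and the use of strand.

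Genes with at least 10 total counts in at least 6 libraries were tested with edgeR 4.0.16 in R 4.3.3 (robust quasi-likelihood F test, TMM scaling, chase time as factor plus genotype), and a second fit held hours by genotype. Conversion counts (at least 10 in at least 3 libraries) were fitted on genotype by hours, with the TMM-scaled total of the library as scale, and again with the gene's own total (plus 0.5) as offset. Library sizes in the total fits are sums over tested genes, and CPM uses all named genes. A half-life is the hours in which fitted label falls by 50%. WT at 0 h and 3 h is assumed to vary like the other groups. P-values were Benjamini-Hochberg adjusted over all genes tested, with a threshold of 0.05. Standard errors are the log2 effect over the square root of F. The 95% intervals of log2 effects assume a normal distribution, so they can be narrower than the F test implies. The fits were tested on simulated data.

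Depth ran from 49154 to 26654217 total counts. Shares carry exact intervals, and a count of 0 allows 3 counts, for counting error only. Alternatives were DESeq2 1.42.0, other scaling, filters and libraries, and the own-total fit on the 12 deep libraries was added after seeing the data. Named genes are the members, Mettl3, up to 4 called genes per list with the smallest p (whole lists under 9 genes) and the 3 genes nearest each member in Pearson's r. Beyond this rule, Eif2s3y, Dnmt1, Uhrf1 and Kit were named after their values were seen, and 1 listed gene is not reported here. Replicate numbers did not pair libraries (correlations of deviations between -0.0749 and 0.175).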

Additional observations from a re-analysis of the deposited data

Results flagged for a closer look

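In 3 cases a member's CPM in 1 shallow library stood far from the other libraries of its genotype by a gap test, which chance alone passes in about 1 of 20 groups. Dppa3 stood at 13.98 CPM in Mettl3-KO 3 h replicate 2 (5 counts), against 35.5 to 50.03 CPM in the 7 deep Mettl3-KO libraries. Dppa5a stood at 2.80 CPM in the same library on 1 count, against 0.0756 to 0.878 CPM in the deep Mettl3-KO libraries. Dppa4 stood at 40.6 CPM in WT 1 h replicate 2 (2 counts), against 172 to 230.0 CPM in the 5 deep WT libraries. The Dppa3 and Dppa4 results are given above with and without these libraries, and the Dppa5a call appears without Mettl3-KO 3 h replicate 2.

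Dppa5a, outside the conversion test, had 12 conversion counts among 31 total counts in the WT libraries at 8 h, a share of 38.7% (exact 95% interval 21.9% to 57.8%). Of the genes with at least 20 counts there, 0.308% had a higher share. At 0 h in WT its share of 83.3% was exceeded by 0.273% of genes.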

How the results depend on the processing

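Dppa3 total RNA was called higher in every alternative that gave a value (log2 3.50 to 4.01), and Dppa2 and Dppa4 total RNA was not called in any. Dppa3 and Dppa5a gave no value in the 8 h libraries alone, where they did not pass the count filter. Depth limits Dppa3 in WT and Dppa5a throughout, and 2 shallow libraries move the counts of calls.

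Total RNA was called for 3231 genes with all 14 libraries, 6001 with the 12 deep ones and 2070 with all 14 and no filter. Its course over the chase was called for 0 genes with all 14 libraries, 80 with the deep ones and 53 by DESeq2 on all 14. The loss rate was called for 330 genes with all 14, 678 with the deep ones, 728 by DESeq2 on all 14, 26 in the 0 to 3 h libraries and 716 in the deep ones with own total as offset. Dppa5a total RNA passed at -2.07 in the deep libraries and at -1.91 by DESeq2. Dppa4 total RNA over the chase turned to 0.031 in the deep libraries and 0.0064 by DESeq2.

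Labelled RNA at 0 h was called for 966 genes with all 14 libraries, for 608 with the replicate block, for 1 with own total as offset and for 9 with that offset in the deep libraries. Under these last settings Dppa3 no longer passed (0.38 and 0.375), as it then measures label per unit of Dppa3 RNA, and Dppa2 turned to -0.294 and -0.303. With the replicate block Dppa4 turned to 0.164, a value that passed in neither fit, and the block changed no call of a member. In the 0 to 3 h libraries alone, labelled RNA at 0 h turned to -0.135 for Dppa2 and 0.048 for Dppa4, the WT label of Dppa3 per hour to 0.17, and the loss rate difference to -0.346 for Dppa3 and -0.040 for Dppa4. Label per hour, called for 11185 genes in Mettl3-KO and 11592 in WT, was called there for 265 and 791, and Dppa2 no longer passed (-0.301 in Mettl3-KO, adjusted p = 0.397, and -0.502 in WT, adjusted p = 0.176, by edgeR). Scaling by TMM of the conversion counts, which takes the common loss out, gave Dppa4 0.341 for labelled RNA at 0 h and 0.051 and 0.071 for label per hour in Mettl3-KO and WT, gave Dppa3 0.145 in Mettl3-KO, and gave loss rate differences of -0.076 for Dppa2 and -0.020 for Dppa4. No member passed for label per hour under this scaling (Dppa2 -0.100 in Mettl3-KO and -0.024 in WT), and calls were 2697 and 919. For the other changes the cause was not tested.

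Leaving out 1 library at a time, calls ran from 2236 to 5281 for total RNA and from 0 to 17 for its course over the chase (both highest without Mettl3-KO 3 h replicate 2), from 389 (without WT 1 h replicate 1) to 1197 for labelled RNA at 0 h, and from 68 (without WT 8 h replicate 2) to 557 (without WT 3 h replicate 1) for the loss rate. Dppa5a total RNA ran from -2.28 to -1.57. Labelled RNA at 0 h ran from -0.133 to 0.490 for Dppa2, 2.58 to 4.04 for Dppa3 and -0.277 to 0.169 for Dppa4. The loss rate difference of Dppa2 ran from -0.053 to 0.036, that of Dppa3 from 0.050 to 0.476 and that of Dppa4 from 0.021 to 0.094. Total RNA over the chase ran from -0.037 to 0.035 for Dppa4 and -0.327 to 0.064 for Dppa5a.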
